A study of Drosophila melanogaster with 6 samples.

Results

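Copia and Pao are 2 superfamilies of LTR retrotransposons, and the members described here were every LTR feature of the annotation whose superfamily was not Gypsy. The rule found 2219 annotated copies among 123041 features of the 6 libraries, 481 of Copia and 1738 of Pao. Reads of all copies with 1 element name were summed, with internal parts (written _I-int or -I_DM) apart from LTRs, which gave 26 entries: 9 of Copia and 17 of Pao, 14 internal parts and 12 LTRs. The members were defined by the annotation and not by any measured value. Within an element most copies were listed by number, and neither their coordinates nor their sequences were used here.

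The libraries were eCLIP libraries of Asterix (Gtsf1), in which RNA is trimmed with RNase, recovered with a protein and sequenced. All came from the Drosophila line OSS (ovarian somatic sheath), transiently transfected with a plasmid that encodes Asterix with a TEV-Strep tag, so that cells without the tagged protein were not among the groups. There were 2 kinds of sample, the pull-down on Strep-binding beads (IP) and the lysate before it (input). The groups were crosslinked IP (2 libraries), crosslinked input (2), non-crosslinked IP (1) and non-crosslinked input (1), and crosslinked cells had received 400 mJ of ultraviolet light at 254 nm.

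An LTR retrotransposon moves through an RNA that is reverse transcribed and inserted at a new place in the genome. Its terminal repeats carry the start and the end of that RNA, and the internal part encodes the capsid protein Gag and the enzymes of the Pol polyprotein. Asterix is a zinc finger protein of the Piwi pathway, which in ovarian somatic cells uses piRNAs, many of them from the flamenco locus, to silence mainly Gypsy-superfamily elements at the level of transcription.

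The libraries differed in depth and in rRNA, and both bear on every value below. After crosslinking, the IP libraries held 2206919 and 2921685 annotated reads and the inputs 12391586 and 13658478. Without it, the IP held 2018241 and the input 12499302. Of these, rRNA made up 68.0% and 69.5% in crosslinked IP, against 85.8% and 85.6% in crosslinked input, and 60.1% of the IP against 87.0% of the input without crosslinking. The somatic markers tj, zfh1, Fas3, piwi, fs(1)Yb and flam had reads in every library. Per 1e6 annotated reads, piwi had 210 and 147 in crosslinked IP against 32.9 and 42.2 in crosslinked input. On that scale flam had 2002 and 1551 against 236 and 273. By contrast, zfh1 and fs(1)Yb were lower in both crosslinked IP libraries than in both inputs, and tj and Fas3 overlapped. Of the germline markers, bam and osk had 0 to 3 reads in a library, nos at most 4.83 and vas at most 7.62. But aub had 29.8 and 25.1 reads in crosslinked IP against 2 in each crosslinked input. AGO3 went the same way, with 7.7 and 7.17 reads against 1 and 2.67. In crosslinked input the haemocyte marker srp had 283 and 370 reads and Hml had 4 and 7.5. There srp had more reads than Fas3 and fs(1)Yb and fewer than the other somatic markers. The muscle markers Mhc and Act57B had 1.5 and 4.5, and 19.3 and 11.9, reads in crosslinked input. A count of 0 allows up to 1.36 and 1.03 CPM (reads per 1e6 annotated reads) in crosslinked IP, against 0.242 and 0.220 CPM in its inputs, and 1.49 CPM in IP against 0.240 CPM in input without crosslinking. These floors, at 3 counts, cover counting error only, as do all intervals here, and molecules and PCR copies cannot be told apart in them.

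Reads of the members came mostly from 1 entry. Copia_I-int, the internal part of copia, held 92.4% of all Copia and Pao reads. Of the 26 entries, 13 had at least 100 reads over the 6 libraries and 13 had fewer, between 1 and 97.8. Because element lengths were not at hand, levels are compared between libraries and not between elements.

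As a share of annotated reads, the Copia superfamily took 0.421% and 0.446% in the crosslinked IP libraries, against 0.348% and 0.396% in the crosslinked inputs. Both IP libraries lay above both inputs, and the means were 0.434% ± 0.0179 in crosslinked IP and 0.372% ± 0.0337 in crosslinked input (SD, n = 2 each). Without crosslinking the order was the other way: Copia took 0.104% of the IP library (95% Wilson interval 0.0993% to 0.108%) and 0.281% of its input (0.278% to 0.284%). This turn came from Copia_I-int: the other Copia entries together took 0.00932% of the non-crosslinked IP against 0.00521% of its input, and 0.00902% and 0.00824% in crosslinked IP against 0.00474% and 0.00592% in crosslinked input. The Pao superfamily took 0.0340% and 0.0282% in the crosslinked IP libraries, against 0.0206% and 0.0220% in the crosslinked inputs. It took 0.0415% of the non-crosslinked IP (0.0388% to 0.0444%) and 0.0158% of the non-crosslinked input (0.0151% to 0.0165%), so Pao was above its input in both conditions. An exact two-sided permutation test gave p = 0.333 for each superfamily in the crosslinked libraries, which is the smallest p that 2 libraries against 2 can give.

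The share depends on what it is a share of. On the log2 scale, crosslinked IP over input was 0.22 for Copia and 0.54 for Pao over all annotated reads, and -0.90 and -0.58 once rRNA was taken out of the total. Without crosslinking, IP over input was -1.44 for Copia and 1.39 for Pao over all annotated reads, and -3.05 and -0.22 without rRNA. Copia lay below Pao on both totals with and without crosslinking, but in the crosslinked libraries this rested on Copia_I-int. Without that entry, crosslinked IP over input was 0.70 for Copia over all annotated reads and -0.43 without rRNA, both above Pao. Without crosslinking it was 0.84 and -0.78, both below Pao. In bulk RNA, fewer cells with an element and less of its RNA per cell cannot be told apart.

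**Figure D1:**
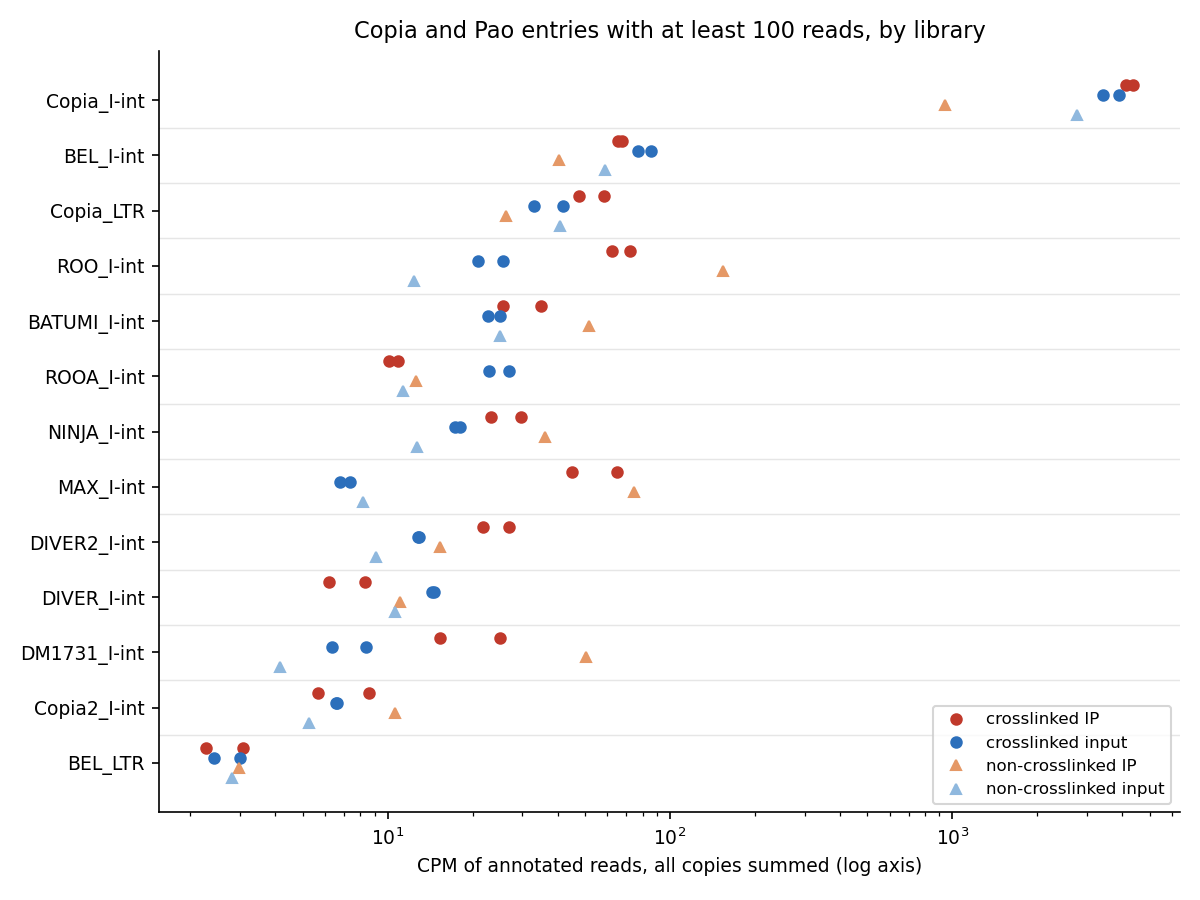
Levels of the 13 Copia and Pao entries with at least 100 reads, one row per entry and one point per library, in CPM with all copies summed (log axis). Copia_I-int has 943 CPM in the non-crosslinked IP, below every other library, while ROO_I-int, MAX_I-int, DM1731_I-int, NINJA_I-int, DIVER2_I-int and BATUMI_I-int have more CPM in all 3 IP libraries than in all 3 inputs. On this scale the median log2 of crosslinked IP over input was 0.76 over all entries tested below. How many of all entries separate in this way was not counted, so the separation is not read as a result about these 6.

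Crosslinked IP was compared with crosslinked input to ask which of these RNAs were recovered with the tagged protein above the lysate. Counts were tested with edgeR's quasi-likelihood test over all entries of the table, with TMM scaling and Benjamini-Hochberg adjustment, and entries with an adjusted p under 0.05 are called. Of 26 entries, 19 had enough reads to be tested: 6 were called higher in crosslinked IP and 5 lower. Over all 13079 entries tested, 56.4% were called, 28.8% higher and 27.6% lower, so the count of members is near that background. The median log2 difference was -0.27 over the 19 members and -0.07 over all entries. Of the LTR entries tested, ROO_LTR, BATUMI_LTR, MAX_LTR and DIVER2_LTR reached the level required for testing through the IP libraries alone, and these 4 were called higher. DIVER_LTR reached it through the inputs alone and was called lower, so these 5 calls follow in part from the filter. For comparison, 45 of 80 tested Gypsy entries were called higher and 3 lower, with a median of 1.13. The labels do not say whether libraries of a group came from separate cultures, so the spread behind these p-values may be technical. That spread is between the 2 libraries of a group and is estimated in part over all entries.

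The scale sets several of these directions. TMM factors were 1.36 and 1.32 in the crosslinked IP libraries and 0.687 and 0.810 in the crosslinked inputs. With library size alone the median of all entries was 0.76, and with rRNA left out of the library size it was -0.73. For each entry with at least 100 reads the difference is therefore given on all 3 scales.

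Copia_I-int had 4121 and 4381 CPM in the crosslinked IP libraries, against 3433 and 3898 CPM in the crosslinked inputs. Both IP values lie above both inputs, with a gap smaller than the distance between the inputs. Its log2 difference was -0.63 (SE 0.30, adjusted p = 0.0841) after TMM scaling, 0.21 with library size alone and -0.91 without rRNA, where it was called lower, so its sign follows the scale. Copia_LTR, the terminal repeat that carries the copia promoter, had 47.6 and 58.5 CPM in crosslinked IP against 33.0 and 41.7 CPM in crosslinked input. Its log2 difference was -0.32 (adjusted p = 0.232), 0.51 with library size alone and -0.61 without rRNA, again called lower on the last scale.

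DM1731_I-int, the internal part of another Copia element, had 25.0 and 15.3 CPM in crosslinked IP against 6.36 and 8.35 CPM in crosslinked input. The groups did not overlap, and the log2 difference of 0.58 (SE 0.24, adjusted p = 0.0541) missed the threshold. With library size alone it was 1.42 and called higher, and without rRNA it was 0.30 and not called. Copia2_I-int had 8.61 and 5.65 CPM in crosslinked IP against 6.58 and 6.59 CPM in crosslinked input. These groups overlap in CPM, and Copia2_I-int was called lower after TMM scaling (-0.79, SE 0.27, adjusted p = 0.0243) but stood at 0.06 with library size alone, and it was called lower without rRNA at -1.06. Copia1-I_DM, with 74.8 reads in all, was not called.

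Among the Pao elements, MAX_I-int was the internal part with the highest ratio. It had 65.0 and 44.8 CPM in crosslinked IP, against 7.36 and 6.79 CPM in crosslinked input. Its log2 difference was 2.10 (SE 0.24, adjusted p = 1.26e-05), and 2.95 and 1.82 under the other 2 scalings. ROO_I-int, the internal part of roo, which is among the most numerous transposons of the fly genome, had 72.0 and 62.1 CPM in crosslinked IP against 21.0 and 25.6 CPM in crosslinked input. Both IP libraries were above both inputs, and it was called higher at 0.68 (SE 0.22, adjusted p = 0.0164). With library size alone it was called at 1.52, and the call was lost without rRNA in the library size, at 0.39.

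Among the Pao internal parts, 3 were called lower. ROOA_I-int had 10.9 and 10.1 CPM in crosslinked IP, against 22.8 and 26.8 CPM in crosslinked input, a log2 difference of -2.07 (SE 0.24, adjusted p = 1.13e-05). DIVER_I-int had 8.29 and 6.19 CPM in crosslinked IP, against 14.3 and 14.6 CPM in crosslinked input, a log2 difference of -1.87 (SE 0.26, adjusted p = 4.50e-05). Both stayed below their inputs on all 3 scales, ROOA_I-int at -1.23 with library size alone and -2.35 without rRNA, and DIVER_I-int at -1.03 and -2.15. BEL_I-int, the internal part of the element that the BEL/Pao clade is named after, had 65.2 and 67.4 CPM in crosslinked IP against 76.8 and 85.8 CPM in crosslinked input. It was called lower at -1.14 (SE 0.23, adjusted p = 0.000993), which shrank to -0.29 with library size alone, where it was no longer called, and was -1.42 without rRNA.

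The remaining Pao entries with at least 100 reads were not called after TMM scaling, and each was called on 1 of the other scales. BATUMI_I-int had 34.8 and 25.6 CPM in crosslinked IP against 25.0 and 22.7 CPM in crosslinked input, with a log2 difference of -0.52. It turned to 0.33 with library size alone, and without rRNA it was called lower at -0.80. NINJA_I-int, of an element first described in Drosophila simulans, had 29.7 and 23.3 CPM in crosslinked IP against 18.1 and 17.2 CPM in crosslinked input, with a log2 difference of -0.27. It turned to 0.58 with library size alone, and without rRNA it was called lower at -0.55. DIVER2_I-int had 26.9 and 21.8 CPM in crosslinked IP against 12.8 and 12.9 CPM in crosslinked input, with a log2 difference of 0.07. It turned to -0.21 without rRNA, and with library size alone it was called higher at 0.91. In CPM these 3 stood higher in both crosslinked IP libraries than in both inputs, on a scale where the median of all entries was 0.76 higher too. BEL_LTR had 2.27 and 3.08 CPM in crosslinked IP against 2.99 and 2.42 CPM in crosslinked input, and the groups overlap. Its log2 difference was -0.81, with 0.017 for library size alone and -1.10, called lower, without rRNA.

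**Figure D2:**
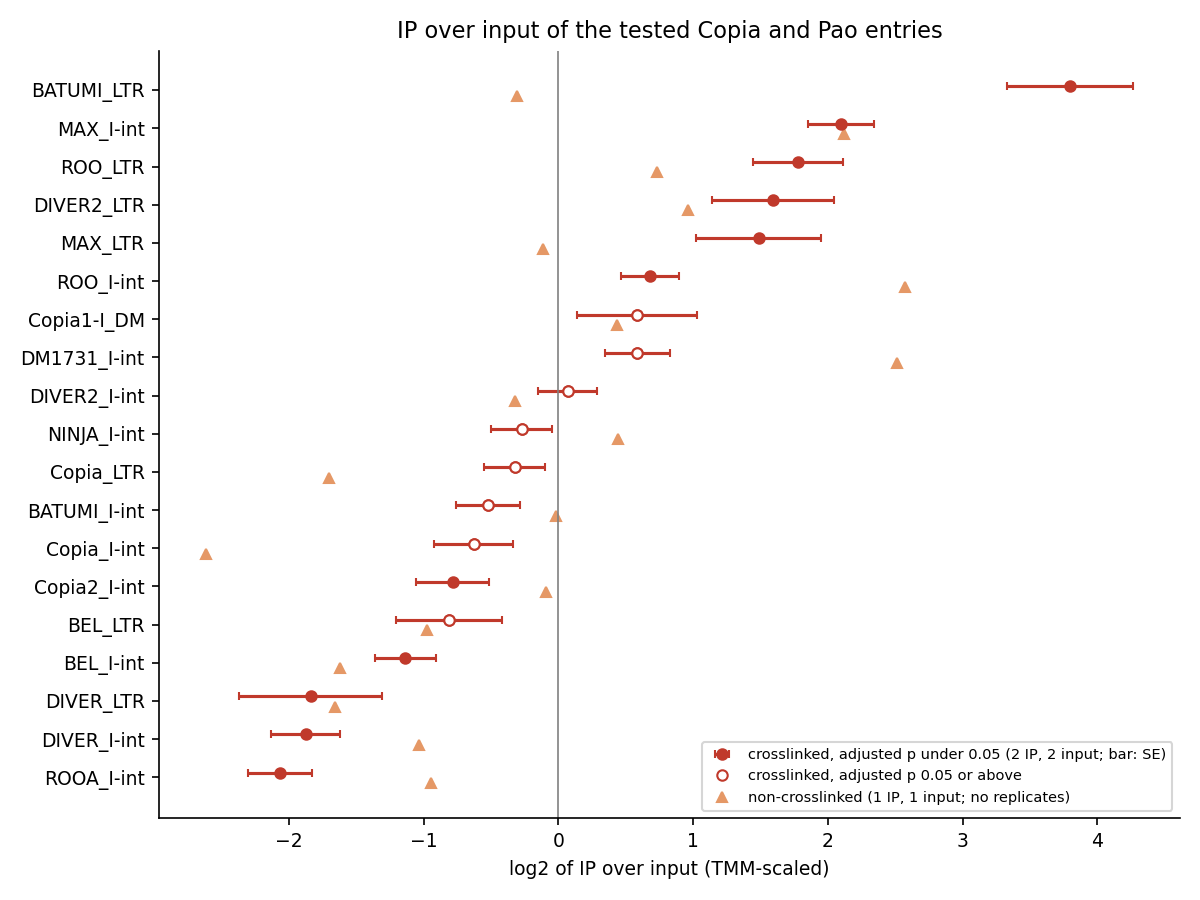
IP over input on the log2 scale after TMM scaling for the 19 tested Copia and Pao entries, ordered by the crosslinked value: circles with SE bars are 2 crosslinked IP against 2 crosslinked input libraries (filled where the adjusted p is under 0.05), triangles are 1 non-crosslinked IP against 1 input. BATUMI_LTR stands at 3.80 with crosslinking and -0.31 without, while MAX_I-int stands at 2.10 and 2.12.

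BATUMI_LTR was singled out after its values were seen. It had 17.0 and 14.2 reads in crosslinked IP against 3.33 and 2.83 reads in the deeper crosslinked inputs. In CPM these were 7.71 and 4.85 in crosslinked IP against 0.269 and 0.207 in crosslinked input. Its log2 difference was 3.80 (SE 0.47, adjusted p = 1.93e-05). Since it entered this test through the IP libraries alone and was picked for its values, that p is a description and no support; with no filter beyond 1 read the difference was 3.56. Without crosslinking it had 3.00 reads, or 1.49 CPM, in IP against 10.7 reads, or 0.855 CPM, in input. The LTR thus made up 18.1% and 15.9% of all BATUMI reads in crosslinked IP (Wilson intervals 11.6% to 27.1% and 9.61% to 24.7%), against 1.06% and 0.905% in crosslinked input (0.325% to 2.77% and 0.326% to 2.78%). It made up 2.79% in the non-crosslinked IP and 3.30% in the non-crosslinked input. The intervals of the crosslinked IP libraries do not reach those of any other library. Since BATUMI_LTR was picked for its values, this too is a description and no support. The share also depends on the internal part. There 1 copy, number 184, held 56.1% and 58.4% of the internal reads in crosslinked input, against 5.60% and 30.8% in crosslinked IP.

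The LTR part of copia and of roo differed by less. For copia it was 1.14% and 1.32% of reads in crosslinked IP, against 0.952% and 1.06% in crosslinked input, and 2.71% in the non-crosslinked IP against 1.46% in its input. For roo it was 9.66% and 8.57% in crosslinked IP, against 4.77% and 4.12% in crosslinked input, and the order turned without crosslinking, at 4.02% in IP against 12.9% in input. The other 3 LTR entries of few reads that were called, ROO_LTR, MAX_LTR and DIVER2_LTR, had log2 differences of 1.78, 1.49 and 1.59 in crosslinked IP over input. They had 6 to 17 reads in each crosslinked IP library against 5 to 15 reads in each crosslinked input, and DIVER_LTR, at -1.84, had 2 and 3 reads against 28 and 24. The 7 entries that were not tested had at most 6 reads in a crosslinked IP library.

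The non-crosslinked pair shows what the same pull-down recovered without ultraviolet light. To ask whether IP over input differed with crosslinking, the difference of the 2 log2 ratios was tested in one fit of all 6 libraries, in which the single libraries are assumed to vary like the replicated groups. Of 22 members tested, 1 was called higher with crosslinking and 2 lower, and of all 19331 entries 2.75% were called, 1.79% higher and 0.962% lower. The median difference was 0.18 over the members and 0.23 over all entries. For comparison, 0 of 91 Gypsy entries were called higher and 6 lower, and 24 of them had an unadjusted p under 0.05. With library size without rRNA, 5 Gypsy entries were called higher.

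ROO_I-int and DM1731_I-int were the entries called lower. ROO_I-int had 154 CPM in the non-crosslinked IP against 12.3 CPM in the non-crosslinked input, a log2 ratio of 2.57, while the crosslinked ratio in this fit was 0.70. The difference was -1.87 (SE 0.41, adjusted p = 0.0122). DM1731_I-int had 50.2 CPM in the non-crosslinked IP against 4.16 CPM in the non-crosslinked input, a log2 ratio of 2.51, while the crosslinked ratio was 0.60. The difference was -1.91 (SE 0.42, adjusted p = 0.0129). For both, the IP library without crosslinking had the highest CPM of all 6 libraries, and the input without crosslinking had the lowest. Without the copy with the most reads, neither was called, at -1.20 for ROO_I-int and -1.03 for DM1731_I-int. Among the other alternatives that tested the whole entry, ROO_I-int lost its call at a threshold of 0.01 and in the fit without the second crosslinked input over the same entries, at -1.85. DM1731_I-int lost its call in those 2 as well, and DESeq2's Wald test gave it no adjusted p. With each copy tested apart, 0 of 7 ROO_I-int copies and 0 of 3 DM1731_I-int copies were called in this difference.

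BATUMI_LTR was called higher with crosslinking, at 4.13 (SE 0.94, adjusted p = 0.0166), on the few reads given above, and it was picked for its values. With no filter beyond 1 read it was 3.92 and called. It was not called with DESeq2 size factors, at 3.70, nor at a threshold of 0.01, DESeq2's own test gave it no adjusted p, and it was not tested with a minimum of 10 counts.

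The value for copia had the opposite sign to that of roo and fell just outside the threshold. Copia_I-int had 943 CPM in the non-crosslinked IP against 2756 CPM in the non-crosslinked input, a log2 ratio of -2.62, and its crosslinked ratio in this fit was -0.61. The difference of 2.01 (SE 0.55) had an adjusted p of 0.0505 and was not called. It was 1.76 with library size alone and 2.25 without rRNA, and it was called under both. It was not called with DESeq2 size factors (1.58), with no filter beyond 1 read (1.80), or without the first (1.80) or the second (1.69) crosslinked IP library, and it was called without the first (1.98) or the second (1.99) crosslinked input. Copia_LTR had 26.3 CPM in the non-crosslinked IP against 40.8 CPM in the non-crosslinked input, with a difference of 1.40 (SE 0.44, adjusted p = 0.0885). For both parts of copia the non-crosslinked IP was the lowest of the 6 libraries.

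MAX_I-int had 74.7 CPM in the non-crosslinked IP against 8.18 CPM in the non-crosslinked input, a log2 ratio of 2.12, against 2.11 with crosslinking. The difference was -0.01 (SE 0.43). The other 8 entries with at least 100 reads had differences between -1.11 (ROOA_I-int, SE 0.47) and 0.50 (BEL_I-int, SE 0.44), and the smallest adjusted p among them was 0.232. BEL_I-int had 40.4 CPM in the non-crosslinked IP against 58.7 CPM in its input, lower than its input as it was with crosslinking. Several entries had more CPM in the non-crosslinked IP than in its input while their log2 ratio after TMM scaling was near or below 0. BATUMI_I-int had 51.8 CPM in IP against 25.1 CPM in input, a log2 ratio of -0.017, and Copia2_I-int had 10.6 CPM in IP against 5.28 CPM in input, a log2 ratio of -0.093. DIVER2_I-int had 15.4 CPM in the non-crosslinked IP against 9.09 CPM in its input, a log2 ratio of -0.32. NINJA_I-int had 36.2 CPM in IP against 12.7 CPM in input, and its log2 ratio was 0.44. For DIVER_I-int, ROOA_I-int and BEL_LTR the single IP and input lay close together in CPM, and IP was lower after TMM scaling, with log2 ratios of -1.04, -0.95 and -0.98. They stood at 11.0 CPM in IP against 10.6 CPM in input for DIVER_I-int, 12.6 CPM against 11.4 CPM for ROOA_I-int, and 2.97 CPM against 2.80 CPM for BEL_LTR.

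**Figure D3:**
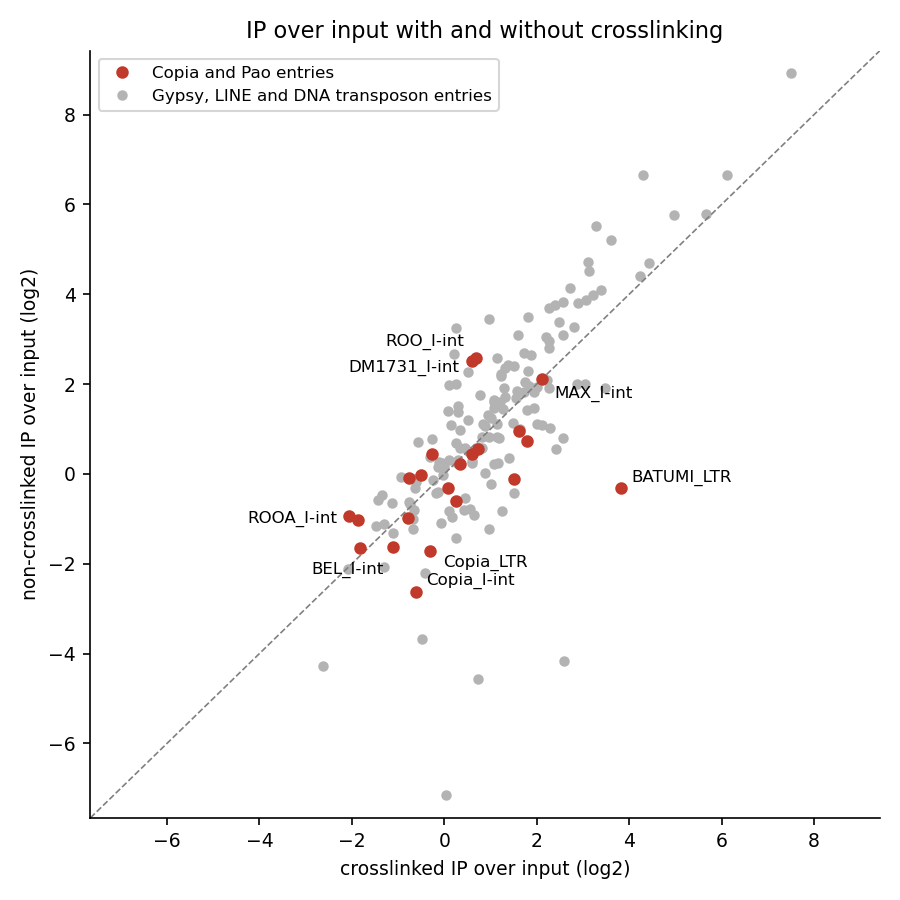
IP over input on the log2 scale with crosslinking (x axis, 2 IP and 2 input libraries) and without (y axis, 1 IP and 1 input library), from one fit of all 6 libraries, with one point per entry and the dashed line at equal values. Copia_I-int (-0.61 and -2.62) and BATUMI_LTR (3.82 and -0.31) lie below the line, and ROO_I-int (0.70 and 2.57) and DM1731_I-int (0.60 and 2.51) above it.

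The IP libraries were then set against each other, and the inputs against each other, in comparisons chosen after the values were seen. They use the libraries of the difference above and so are not separate evidence. Of all 19331 entries 9.69% were called between crosslinked and non-crosslinked IP, 3.29% higher and 6.40% lower, with a median of 0.23, and of the members 3 were higher and 2 lower. Copia_I-int was higher in crosslinked than in non-crosslinked IP by 2.37 on the log2 scale (SE 0.44, adjusted p = 0.000831), and Copia_LTR by 1.22 (SE 0.34, adjusted p = 0.0238). The call of Copia_I-int held under every alternative run for this comparison, and that of Copia_LTR was lost with DESeq2 size factors, with DESeq2's own test and without the second crosslinked IP library. DM1731_I-int was lower in crosslinked IP at -1.14 (adjusted p = 0.0115) and ROO_I-int at -1.01 (adjusted p = 0.0203), while BATUMI_LTR was higher at 2.20 (adjusted p = 0.0359). DM1731_I-int stood at -0.26, not called, without its copy with the most reads, and BATUMI_LTR, of the alternatives run for this comparison, was called only without rRNA in the library size. Between crosslinked and non-crosslinked input 10.2% of entries were called, 5.02% higher and 5.15% lower, and ROOA_I-int was the only member among them, at 1.08 (SE 0.26, adjusted p = 0.0100), with 22.8 and 26.8 CPM in crosslinked input against 11.4 CPM in the non-crosslinked input. Copia_I-int differed between inputs by 0.36 (SE 0.39), which was not called.

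Reads of one element were spread over copies very differently from element to element. Many copies of Copia_I-int had like counts: of 126 listed, the 20 or 21 with the most reads were needed to reach 50% of them in each library, and no copy held more than 2.81%. Copies 136 and 207 had 222 and 225 reads in the first crosslinked IP library, 314 and 323 in the second, 1140 and 1073 in the first crosslinked input and 1408 and 1358 in the second. Without crosslinking they had 44.8 and 47.5 reads in IP, against 967 and 884 in input. Each therefore followed the whole entry. When every copy was tested apart, 55.2% of all 13469 features were called between crosslinked IP and input, 29.5% higher and 25.7% lower, and of 50 tested Copia_I-int copies 1 was called higher and 41 lower, with a median of -0.62. In the difference with and without crosslinking, where 2.65% of all 20201 features were called, 1.83% higher and 0.822% lower, 44 of 51 Copia_I-int copies were called higher and 0 lower, with a median of 2.01. Those copies share reads that the authors divided among them, so they are one signal seen many times and not separate measurements.

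**Figure D4:**
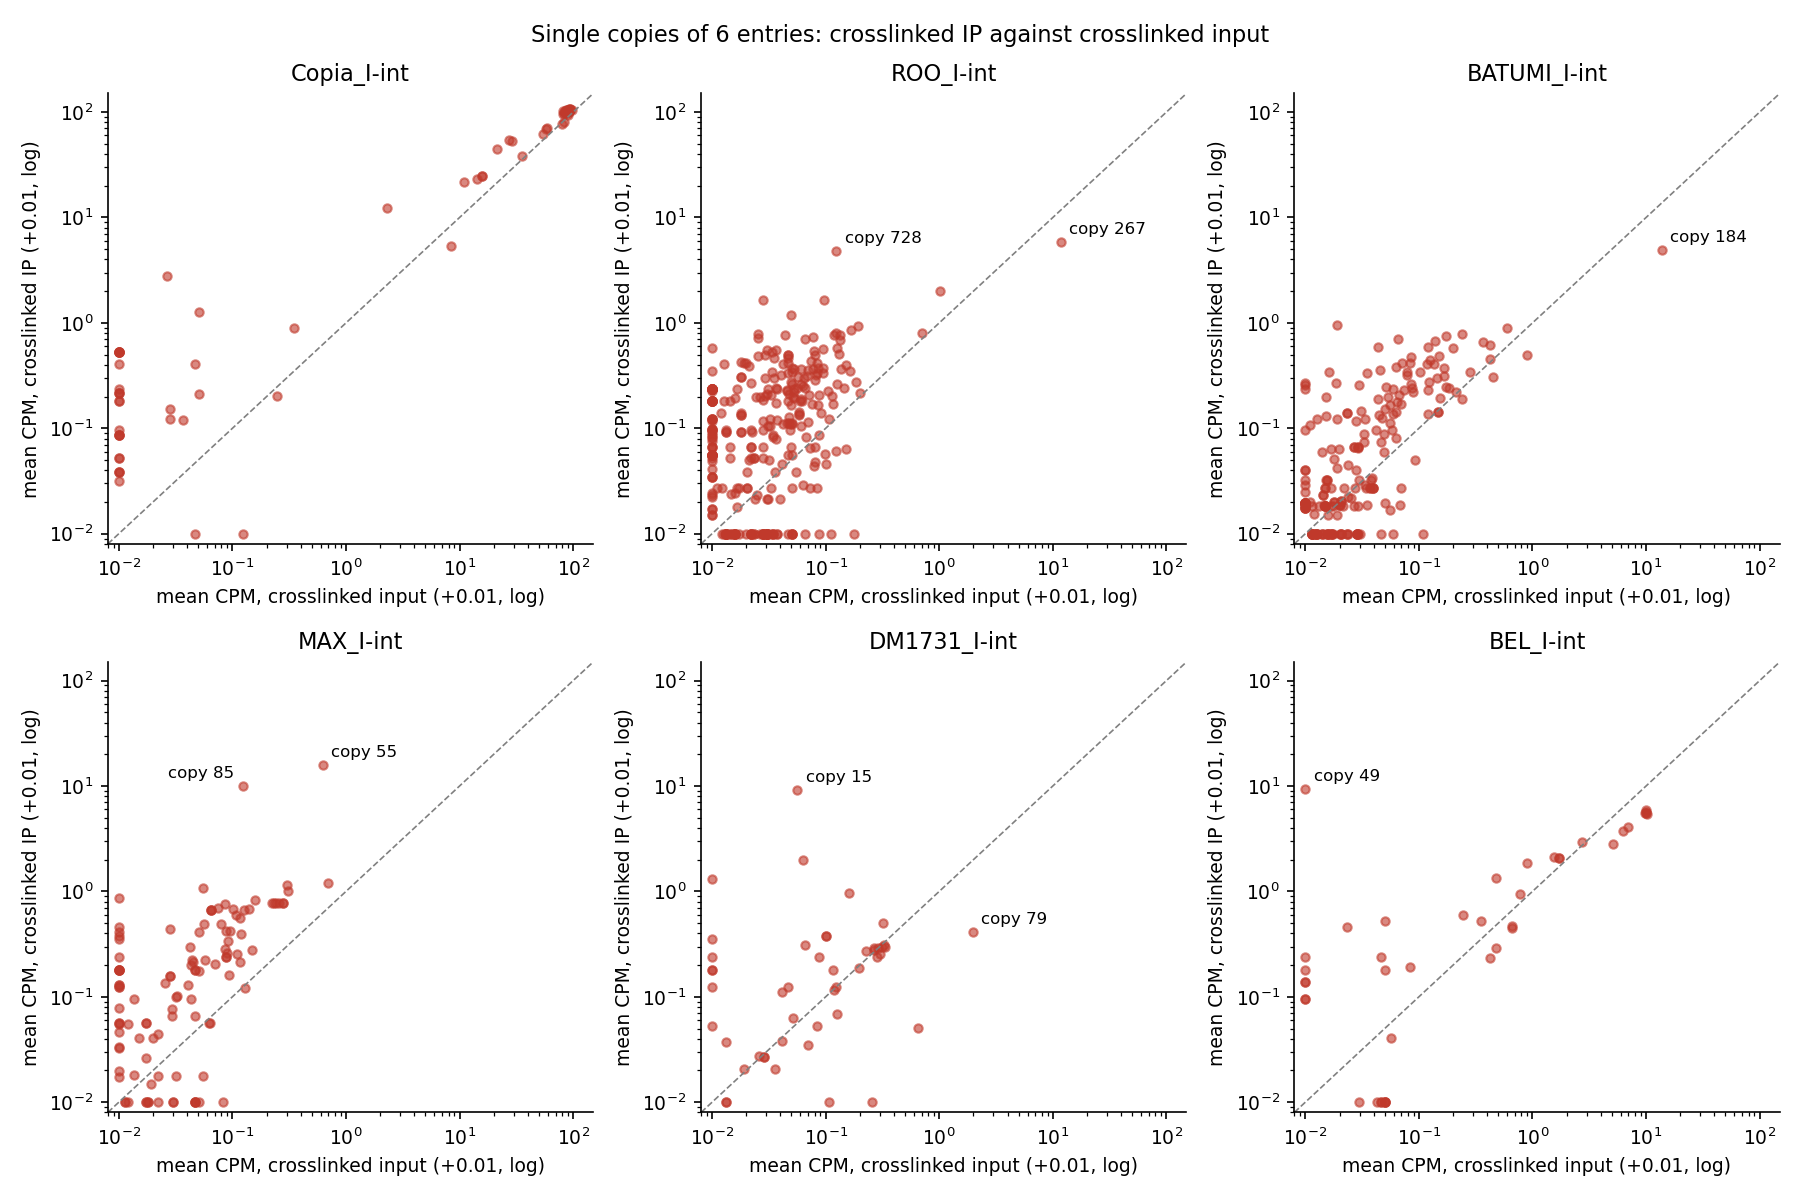
Mean CPM of single copies in the 2 crosslinked IP libraries (y axis) against the 2 crosslinked inputs (x axis) for 6 internal parts, on log axes with 0.01 CPM added and the dashed line at equal values; copies at 0 in all 4 libraries are left out. The copies of Copia_I-int with the most reads lie close together near the line of equal values, whereas in ROO_I-int, BATUMI_I-int, MAX_I-int, DM1731_I-int and BEL_I-int single labelled copies stand apart from the rest.

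In roo and in batumi, 1 copy held a larger share of the entry's reads in each input than in any IP library of the same condition. ROO_I-int copy 267 had 10.5 and 20.0 reads in crosslinked IP against 137 and 170 reads in crosslinked input. It held 6.60% and 11.0% of the roo reads in crosslinked IP, against 52.7% and 48.6% in crosslinked input. Without crosslinking it had 5.00 reads in IP against 23.5 in input, or 1.61% and 15.2% of the roo reads. Its share of about 50% was thus seen in the crosslinked inputs only. ROO_I-int copy 728 did the reverse, with 11.1 and 13.2 reads in crosslinked IP against 0.283 and 2.80 in crosslinked input, and with 19.9 reads in the non-crosslinked IP against 1.11 in its input. Tested apart, copy 267 was called lower in crosslinked IP (-1.81, SE 0.24, adjusted p = 0.000502) and copy 728 higher (4.39, SE 0.62, adjusted p = 0.000707), but copy 728 passed the filter through the IP libraries alone, so its call follows in part from the filter. BATUMI_I-int copy 184 had 4.31 and 23.0 reads in crosslinked IP, against 174 and 181 reads in crosslinked input, and 12.1 reads in the non-crosslinked IP against 183 in its input. It held 5.60% of the batumi reads in one crosslinked IP library and 30.8% in the other, and it was called lower (-2.19, SE 0.39, adjusted p = 0.00226). Without copy 184 the batumi internal part stood at 0.44 in place of -0.52, and without copy 267 roo stood at 1.57 in place of 0.68, both in crosslinked IP over input.

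For the other leading copies the shallower IP libraries held fewer reads than the inputs. BEL_I-int copies 70 and 1 had 11.8 and 13.0 reads in the first crosslinked IP library and 16.3 and 17.2 in the second, against 121 and 117 reads in the first crosslinked input and 144 and 146 in the second. Copia_LTR copy 21 had 33.1 and 64.6 reads in crosslinked IP against 201 and 260 in crosslinked input, which was 31.5% to 49.1% of that entry over the 6 libraries. In CPM this copy had 15.0 and 22.1 in crosslinked IP against 16.2 and 19.0 in crosslinked input, so the groups overlap. Copia_LTR copy 83 had 2 and 2.5 reads in crosslinked IP against 17.5 and 18.1 in crosslinked input. BATUMI_I-int copy 195 had 0.450 and 2.23 reads in crosslinked IP against 11.9 and 11.2 in crosslinked input. Apart from Copia_LTR copy 21, these copies were also lower in CPM in both crosslinked IP libraries than in both crosslinked inputs.

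The copies that follow were chosen after their values were seen. DM1731_I-int copy 15 had 25.1 and 20.0 reads in crosslinked IP against 0.0833 and 1.17 in crosslinked input, and 71.0 reads in the non-crosslinked IP against 0 in its input. It held 45.6% and 44.7% of the entry in crosslinked IP and 70.1% in the non-crosslinked IP, against at most 1.03% in an input library. Copy 79 of the same entry ran the other way, with 1.00 read in each crosslinked IP library against 20.0 and 32.0 in crosslinked input. MAX_I-int copy 85 had 22.2 and 29.0 reads in crosslinked IP against 1.00 and 2.00 in crosslinked input, and 62.0 reads in the non-crosslinked IP against 1.00 in its input. MAX_I-int copy 55 had 37.2 and 42.6 reads in crosslinked IP against 7.50 and 8.64 in crosslinked input, but 2.09 reads in the non-crosslinked IP against 0.951 in its input. These 2 copies of MAX_I-int were high in crosslinked IP alike and differed in the non-crosslinked IP, yet in the test of the difference itself neither was called (-1.83 for copy 85 and 1.46 for copy 55).

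BEL_I-int copy 49 was read almost wholly in crosslinked IP. It had 23.0 and 24.0 reads there, while each crosslinked input had 0. Without crosslinking it had 0 reads in IP against 2.00 in input. Against the floor of 3 counts in each library it was at least 40.4-fold higher in crosslinked IP than in crosslinked input, and at least 6.27-fold higher than in the non-crosslinked IP. Tested apart it was called higher in crosslinked IP than in input (adjusted p = 0.000116) and in the difference with crosslinking (adjusted p = 0.0258). It had reads enough for either test in the crosslinked IP libraries alone, and it was picked for its values, so these p-values describe it and support nothing. Of 116 member copies tested for that difference 45 were called, all higher, and this was the one outside Copia_I-int. It held 16.0% and 12.2% of BEL_I-int reads in crosslinked IP, while the other called copies of that entry, 8 of 14 tested, were lower. NINJA_I-int copy 83 was similar in crosslinked IP over input, with 12.5 and 7 reads in crosslinked IP against 0.750 and 0 in crosslinked input, 0.250 in the non-crosslinked IP and 0 in its input, but the difference with crosslinking was not called for it. Reads that fit several copies were divided among them and the rule for that is not stated, so the copy that gave a read is uncertain, and sense and antisense RNA of a copy could not be told apart.

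The initiator methionine tRNA, known as the primer for reverse transcription of copia and DM1731, was set beside those elements. Its 6 genes together had 213 and 194 CPM in crosslinked IP, against 1.13 and 3.15 CPM in crosslinked input, and 340 CPM in the non-crosslinked IP against 0.160 CPM in its input. Crosslinked IP over input was 5.49 to 6.56 on the log2 scale for the 6 genes, which share reads. Copia_I-int and Copia_LTR stood at -0.63 and -0.32 in the same fit, and the tRNA was high in the non-crosslinked IP, in which both parts of copia were at their lowest. DM1731_I-int stood at 0.58 in that fit and was not called. Like the tRNA, it was highest in the non-crosslinked IP, with 50.2 CPM against 4.16 CPM in its input. That was not particular to DM1731_I-int. ROO_I-int (154 CPM), MAX_I-int (74.7), BATUMI_I-int (51.8), NINJA_I-int (36.2) and Copia2_I-int (10.6) were also highest in that library. No other tRNA was set beside these elements, and a link between the tRNA and DM1731_I-int was not tested.

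The authors' deposited table gives a ratio per feature with no stated formula, and it listed 437 Copia and Pao copies among 31256 features. Their median ratio was 2.81 in the authors' deposited table, against 3.44 over all its features, and 83.8% of the copies were above 1 against 81.7% of all features. In the authors' deposited table the median was 2.02 over 53 Copia_I-int copies, 8.80 over 47 ROO_I-int copies, 7.83 over 36 MAX_I-int copies and 0.466 over 7 ROOA_I-int copies. The highest member in the authors' deposited table was Copia_I-int copy 21, with a ratio of 712 and rank 18. That copy had 7.51 and 6.10 reads in crosslinked IP against 0.0692 and 0.371 in crosslinked input, and so held at most 0.0826% of the Copia_I-int reads in any library.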

How the data were processed

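The 6 eCLIP libraries were grouped by their titles. Per feature, the authors deposited an estimated count, with reads shared out among features where several fit, and an RPM value scaled from it. The authors also deposited a ratio per feature without a stated formula. Per the submitters' processing notes, bcl2fastq 2.19, STAR 2.5.2b and bedtools 2.29.0 were used, and the builds mm10 and dm6 are named without roles. Read filters, duplicate removal and strand are not given in the sources used here. Reads outside the annotation, 8.89% and 7.87% of crosslinked IP, 2.15% and 2.21% of crosslinked input, 13.6% of non-crosslinked IP and 3.23% of non-crosslinked input entered neither library sizes nor tests.

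Transposon copies were summed by element name within 106016 entries, sums were rounded, and edgeR 4.0.16 in R 4.3.3 was run on the deposited counts with TMM factors, filterByExpr (1.31 CPM in 2 libraries for the crosslinked comparison), the two-sided quasi-likelihood test and Benjamini-Hochberg adjustment over all entries. CPM are counts over annotated reads. Alternatives used DESeq2 1.42.0 and limma 3.58.1, the second with log2 of deposited RPM plus 1. The fit was also run on simulated counts in which few entries differed between groups, so that run does not bear on the scaling of these libraries. Sums and plots were made in Python 3.11.15 (matplotlib 3.10.9, numpy 2.4.6, pandas 2.3.3, scipy 1.17.1).

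Every member entry with at least 100 reads over the 6 libraries was named, with the 2 leading copies of the 5 entries with the most reads, and other entries or copies where they are said to be chosen after their values were seen. The members, lists and tests were chosen with earlier results of these data known.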

Additional observations from a re-analysis of the deposited data

Results flagged for a closer look

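For 3 entries IP over input differed between the crosslinked and the non-crosslinked libraries by a test of the difference itself (edgeR's quasi-likelihood test, all 6 libraries). BATUMI_LTR differed by 4.13 on the log2 scale (adjusted p = 0.0166), with 17.0 and 14.2 reads in crosslinked IP against 3.00 reads in the non-crosslinked IP. It reached the level for testing in crosslinked IP over input through the IP libraries alone, was singled out after its values were seen, and was not called with DESeq2 size factors (3.70). DM1731_I-int differed by -1.91 (adjusted p = 0.0129), with 25.0 and 15.3 CPM in crosslinked IP against 50.2 CPM in the non-crosslinked IP. ROO_I-int differed by -1.87 (adjusted p = 0.0122), with 72.0 and 62.1 CPM in crosslinked IP against 154 CPM in the non-crosslinked IP. Without the copy with the most reads, neither DM1731_I-int nor ROO_I-int was called, and no copy of either was called when tested apart. Part of each difference lay in the inputs. On the log2 scale, crosslinked over non-crosslinked input was -1.92 for BATUMI_LTR, 0.77 for DM1731_I-int and 0.87 for ROO_I-int, none of them called. Crosslinked over non-crosslinked IP was 2.20, -1.14 and -1.01 in the same order. The non-crosslinked IP and input are 1 library each, so that one library on either side bears on all 3 results. The non-crosslinked IP also had the lowest share of rRNA, 60.1%, and the largest share of reads outside the annotation, 13.6%, and the part of these in the 3 results was not tested.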

How the results depend on the processing

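Of the crosslinked IP over input calls, 6 higher and 5 lower after TMM scaling, the higher calls numbered 2 with at least 10 counts in every library, 3 with no filter beyond 1 read, 3 with DESeq2's Wald test and 3 at a threshold of 0.01. The lower calls numbered 2 with library size alone, 10 without rRNA in the library size, 8 with at least 10 counts, 67 with each copy apart, 3 with DESeq2's Wald test and 3 with limma on RPM values. Leaving out 1 crosslinked library gave 3 to 9 higher and 2 to 6 lower calls, with different entries tested. The replicate numbers are shared between IP and input without a stated meaning. Over the 13079 tested entries, the difference between the 2 crosslinked IP libraries correlated at 0.0673 with that between the 2 crosslinked inputs. With the replicate number as a block 7 entries were called higher and 5 lower.

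In the difference with and without crosslinking, 1 entry was called higher and 2 lower. The higher calls numbered 0 with DESeq2 size factors, 0 at a threshold of 0.01, 2 with library size alone, 3 without rRNA, 2 with at least 10 counts, 45 with each copy apart, 3 with other features summed by gene and 2 without the copy with the most reads. The lower calls numbered 0 with each copy apart, 1 with DESeq2's Wald test, 0 without the copy with the most reads and 0 at a threshold of 0.01. Leaving out 1 crosslinked library gave 1 to 2 higher calls, and over the entries of the full fit 2 without the first crosslinked input, and 2 higher and 0 lower without the second. Beside the counts of 0 stand 6 to 9 members with an unadjusted p under 0.05 for whole entries under these settings, except 5 without the second crosslinked input.

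Of the named entries that changed sign in crosslinked IP over input, Copia2_I-int was the only one called under either setting: it was called lower after TMM scaling and stood at 0.058, not called, with library size alone. With library size alone crosslinked IP over input was also 0.33 for BATUMI_I-int, 0.017 for BEL_LTR, 0.21 for Copia_I-int, 0.51 for Copia_LTR and 0.58 for NINJA_I-int. With limma on RPM values it was 0.22 for BATUMI_I-int, 0.12 for Copia_I-int, 0.40 for Copia_LTR, 0.46 for NINJA_I-int and -0.0064, still below 0, for Copia2_I-int. DIVER2_I-int stood at -0.21 without rRNA, -0.21 with at least 10 counts, -0.18 with no filter, and -0.047 and -0.040 over the entries of the full fit without the first crosslinked IP or the second crosslinked input. Without the copy with the most reads, BATUMI_I-int stood at 0.44 and DM1731_I-int at -0.28. Leaving out 1 library gave -1.09 to 0.11 for BATUMI_I-int, -0.75 to 0.15 for Copia_LTR, -0.43 to 0.63 for DIVER2_I-int and -0.80 to 0.32 for NINJA_I-int.

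The difference with crosslinking changed sign in 4 named entries, called neither in the full fit nor where the sign turned. BEL_LTR stood at -0.24 with DESeq2 size factors, -0.068 with library size alone, -0.020 with no filter, -0.39 and -0.092 over the entries of the full fit without the second crosslinked IP or the second crosslinked input, and between -0.34 and 0.12 when 1 library was left out. DIVER2_I-int stood at -0.025 with DESeq2 size factors and -0.076 over the entries of the full fit without the first crosslinked IP. MAX_I-int stood at 0.24 without rRNA, 0.019 with other features summed by gene, 0.46 without its copy with the most reads, 0.17 over the entries of the full fit without the first crosslinked input, and between -0.53 and 0.11 when 1 library was left out. DIVER_LTR stood at 0.064 without rRNA and 0.13 over the entries of the full fit without the first crosslinked input. The share of Copia (-0.90) and of Pao (-0.58) in crosslinked IP over input turned below 0 with rRNA left out of the total. The alternative without the leading copy, the comparison between IP libraries and the fits over the entries of the full fit were chosen after seeing the data.

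Depth limits most members: outside Copia_I-int an entry had at most 197 reads in a crosslinked IP library. The causes of these changes were not tested, beyond fewer entries or samples where a setting tests fewer.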
